A study of Mus musculus with 17 samples.

Results

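Germinal centre (GC) B cells taken 48 h after anti-DEC-OVA were compared with those taken at 72 h across all genes, to follow what their transcripts did as the proliferative burst set off by the treatment came to its end. The cells came from 2 pools of hashtagged mice, one of 25 and one of 14 mice. A cell belonged to the comparison when it had at least 200 genes and under 10% mitochondrial UMIs (unique molecular identifiers, counts of captured RNA molecules) and carried the hashtag combination of a treated mouse of day 9 or day 10. This gave 9528 cells of 16 mice among the 23698 cells of 39 mice in the time course: 6053 cells of 9 mice at 48 h (6 in the 25-mouse and 3 in the 14-mouse pool) and 3475 cells of 7 mice at 72 h (4 and 3). The mouse was the replicate throughout.

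Every host was a CD45.1 mouse on the C57BL/6 background that had been primed with ovalbumin (OVA), had received B1-8hi B cells and had been immunised with NP-OVA in the footpad. B1-8hi cells carry a prearranged receptor for the hapten NP. The treated groups (Day9DEC and Day10DEC in the labels) also received anti-DEC-OVA, an antibody to the surface receptor DEC-205 (encoded by Ly75) joined to OVA, on day 7. Days 9 and 10 were read as 48 h and 72 h. The untreated groups of the same days (Day9 and Day10, 6 mice with 3924 cells and 8 mice with 4947 cells) served as the background. The study describes the transferred B1-8hi cells of this model as a mixture. A minority had DEC-205 together with a tetO-H2B-mCherry allele and a Vav-tTA transgene, which is active across blood cells. Most were Ly75-/- and lacked DEC-205, so that among the transferred cells anti-DEC-OVA could act directly on the first kind alone. The study describes the hosts as wild type. It ties the 48 h and 72 h time course to this model and to DEC-205+ cells, whereas the labels say only that live GC cells were sorted, and GC cells of the host could be among them. Age is given as a single range for all experiments. The B1-8hi pairing was called only in cells with a single productive heavy and a single productive light chain, so a missed or extra chain counted as no pairing. In the 25-mouse pool, cells with the pairing made up 70.5 to 77.7% of a treated mouse at 48 h and 61.9 to 69.2% at 72 h. In the 14-mouse pool they made up 53.1 to 58.0% and 32.2 to 42.3%. In untreated mice the mean shares on days 9 and 10 were 64.6 and 70.3% in the 25-mouse pool. In the 14-mouse pool these means were 36.7 and 39.9%. The part of missed chains in the lower shares at 72 h was not tested. Where a result is given for cells with that pairing only, it is named as such.

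In a GC, B cells move between the light zone (LZ), where they take up antigen, present it to T follicular helper cells and receive help through CD40, and the dark zone (DZ), where they divide. Strong help lets a cell divide several times in the DZ without returning to the LZ, which is called inertial cycling. Anti-DEC-OVA loads OVA onto GC B cells that bear DEC-205, draws T cell help to them and so sends many of them through such divisions together.

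The treated mice had 527 to 983 cells and 8108048 to 13373185 UMIs each at 48 h, and 292 to 755 cells and 2021775 to 6322592 UMIs at 72 h. The pools differed in the median mitochondrial share of a mouse, which was 2.17 to 2.53% in the 25-mouse pool and 4.04 to 5.48% in the 14-mouse pool, and 350 and 3114 assigned cells were at or above the mitochondrial limit. Fits over both pools held a term for the pool unless stated. The pools shared 60 cell barcodes, 0.455% of the smaller pool. The 9 GC B cell markers summed to 4293 to 5731 CPM (the UMIs of a mouse scaled to a common total) in a mouse at 48 h and to 5364 to 7735 at 72 h, and none was at 0. The 6 T cell markers summed to 1.17 to 5.44 and 0.440 to 8.07, and the 6 macrophage or dendritic cell markers to 0.532 to 17.2 and 2.64 to 24.1. Plasma cell markers summed to 1510 to 2344 at 48 h and 1222 to 1566 at 72 h, and naive or memory B cell markers, a list that includes the LZ gene Fcer2a, to 91.9 to 189 and 187 to 316. The part of other cells in the results was not tested, except where values for cells with the B1-8hi pairing are given.

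Between 48 h and 72 h more of the treated cells were called G1, fewer were called S or G2M, and each cell yielded fewer UMIs. Phases were called per cell from the expression of S and G2M genes. The share of cells called G1 was 16.4, 21.8 and 24.6% (lowest, median and highest mouse) at 48 h and 36.3, 49.9 and 57.5% at 72 h, so that the groups did not overlap. The means were 20.9 ± 3.26% (SD, n = 9) and 47.7 ± 8.15% (SD, n = 7), a pool-adjusted difference of 27.6 percentage points. S cells went from 36.2 ± 2.06% to 24.03 ± 2.51% and G2M cells from 42.9 ± 3.50% to 28.3 ± 6.04%, pool-adjusted differences of -12.4 and -15.2 points. With only cells of the B1-8hi pairing the differences were 22.8 points for G1, -7.49 for S and -15.4 for G2M. Over all cells the median number of UMIs per cell went from 13024 ± 1463 to 7260 ± 1329, and that of genes per cell from 3731 ± 198 to 2738 ± 276. Each of the 5 differences over all cells had an exact two-sided permutation p of 0.000238, the smallest that the 4200 relabellings of mice within the pools allow. In the 25-mouse pool alone each had an exact p of 0.00476, again the smallest possible, and the 14-mouse pool alone cannot go below 0.1, the value it gave in each case.

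In the untreated mice the differences over the same day were smaller and did not pass the test. Their G1 share was 51.5 ± 5.29% (SD, n = 6) on day 9 and 48.9 ± 6.65% (SD, n = 8) on day 10, with an exact permutation p of 0.447. For S, G2M, UMIs and genes per cell the exact permutation p was 0.0913, 0.750, 0.682 and 0.642. The treated mice at 72 h, with 47.7% of cells in G1 and 7260 UMIs per cell, thus stood beside untreated values of 48.9% and 6396 UMIs, a pair of levels for which no test was run. Cells were also thinned to 2871 UMIs each. A treated mouse then had a median of 1461 to 1516 genes per cell at 48 h and 1494 to 1544 at 72 h. These ranges overlapped across but not within the pools. In the 25-mouse pool they were 1461 to 1481 at 48 h and 1494 to 1496 at 72 h. In the 14-mouse pool they were 1510 to 1516 and 1534 to 1544. Thinned cells of treated mice thus had more genes at 72 h, opposite to the fall without thinning. This rise was not tested.

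**Figure D1:**
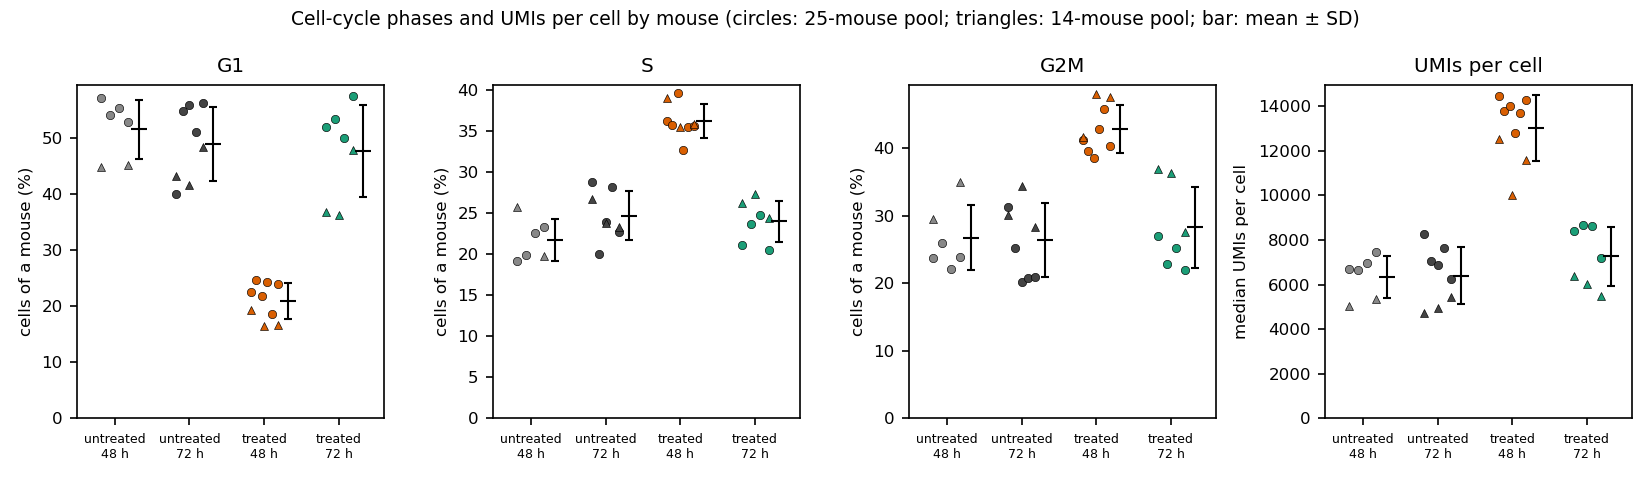
Share of cells called G1, S and G2M (%) and median UMIs per cell, 1 point a mouse, for untreated and treated mice at 48 h and 72 h; bars give mean ± SD. The treated 48 h mice stand apart in every panel, with 16.4 to 24.6% of cells in G1, while the range of the treated 72 h mice (36.3 to 57.5%) overlaps that of the untreated mice.

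Levels were compared between mice on summed UMIs by edgeR's quasi-likelihood test, with Benjamini-Hochberg adjustment and a threshold of 0.05. Of 10270 genes tested, 2476 (24.1%) were higher and 2549 (24.8%) lower at 72 h than at 48 h, 48.9% in all. In untreated mice 13 genes (0.127%) were higher and 3 (0.0292%) lower, 0.156% in all, with 824 at an unadjusted p under 0.05 and 37 called by DESeq2. With so few calls over all genes, a list without a call in untreated mice says little about its members. The change itself differed between treated and untreated mice for 3223 genes (31.4%), more positive after treatment for 1481 (14.4%) and more negative for 1742 (17%). The 48 h and 72 h mice did not overlap within either pool for 908 genes (8.84%) with a joint rise and 1389 (13.5%) with a joint fall. The direction within each pool was not part of this count. All levels are CPM of a mouse, and fold changes are of that level on the log2 scale with TMM normalization, with ± SE. They are therefore relative to the RNA captured from the cells. Scaled per cell instead, the median of all genes moved to -0.69, with 24 genes (0.234%) higher and 9447 (92%) lower, so that a gene described as higher at 72 h made up more of the RNA of a cell that yielded less of it. In sums over a mouse, fewer cells of a kind and less RNA per cell cannot be told apart.

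**Figure D2:**
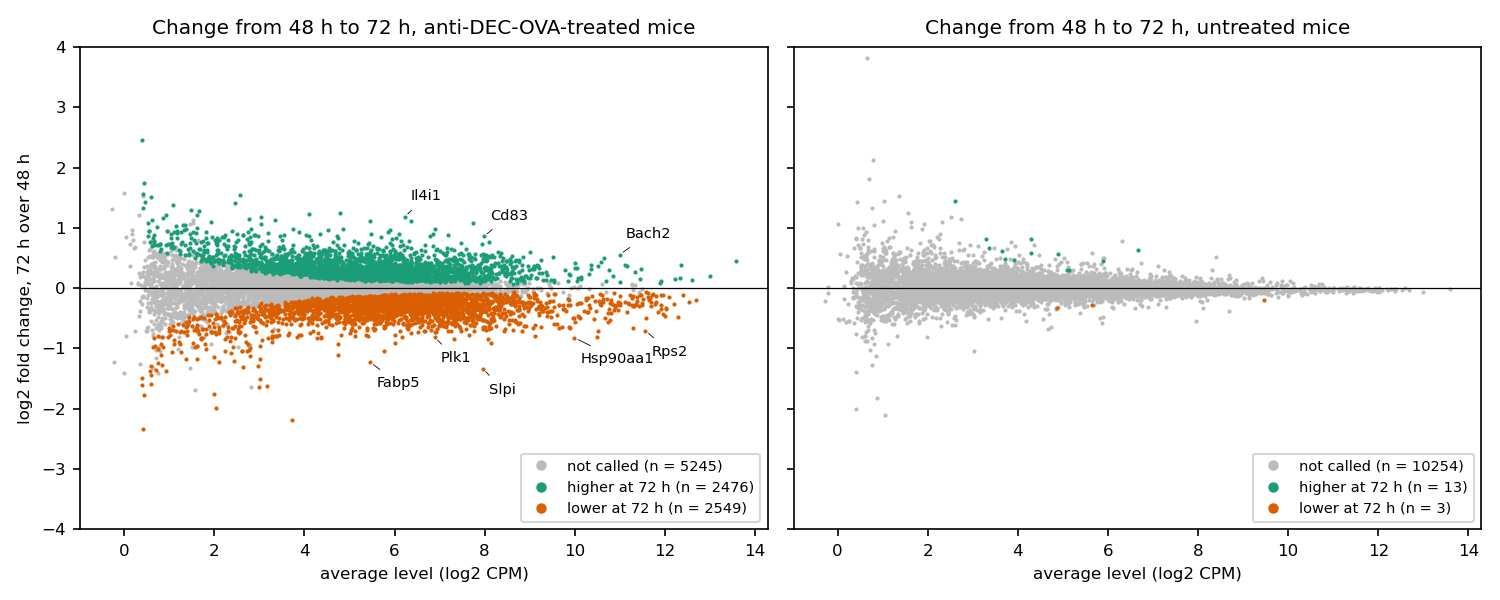
Log2 fold change from 48 h to 72 h against the average level (log2 CPM) of each of 10270 genes, in treated mice (left) and untreated mice (right); coloured points passed an adjusted p of 0.05. In treated mice 2476 genes were higher and 2549 lower, in untreated mice 13 and 3.

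The genes that carry a cell through division fell together. Of 57 mitosis genes, 55 fell and none rose, with a median log2 fold change of -0.49, beside 0.01 over all genes tested; in untreated mice none of the 57 passed the test in either direction (median -0.01), and the change differed from the untreated one for 52. Plk1, the kinase that drives entry into and progress through mitosis, stood at 151, 172 and 185 CPM (lowest, median and highest mouse) at 48 h and at 66.5, 97.7 and 115 CPM at 72 h. No 72 h mouse reached the lowest 48 h mouse, and the fall was 0.82 ± 0.10 on the log2 scale (adjusted p = 4.82e-09, edgeR's quasi-likelihood test). Aurka, the spindle kinase Aurora A, had 88.2, 106 and 117 CPM against 40.5, 60.2 and 71.6, again without overlap, and fell by 0.81 ± 0.10. Ccnb1 (cyclin B1) fell by 0.70, Cdc20, which activates the anaphase-promoting complex, by 0.59 and Ube2c, its ubiquitin-conjugating enzyme, by 0.60. Mki67, the proliferation marker Ki-67, went from 1823, 1898 and 2462 CPM to 1064, 1421 and 2050, overlapping across pools but not within either, and fell by 0.49 ± 0.08.

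Summed over all cells, the machinery of DNA replication fell as well. Of 27 genes for origin licensing and the CMG helicase, 23 fell and 1 rose (median -0.42), and of 34 tested genes for DNA synthesis and nucleotide supply 33 fell and none rose (median -0.47). In untreated mice no member of either list passed the test. Cdc6, which loads the MCM helicase at origins, went from 63.5, 71.3 and 80.02 CPM to 39.6, 47.6 and 54.5, with no overlap (-0.60 ± 0.09). Gins2, a subunit of the CMG helicase, fell by 0.66 and Mcm10, which acts as origins fire, by 0.66. Rrm2, a subunit of ribonucleotide reductase, which makes deoxynucleotides, went from 257, 301 and 323 CPM to 146, 173 and 210, with no overlap (-0.72 ± 0.11). Dut, which clears dUTP, fell by 0.70.

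Promoters of these cell-cycle genes were read from RefSeq (GRCm38.p6, the 250 bases upstream of the first listed start), since members that move together are known from other work to share elements there. This build is not the one the reads were aligned to, and no coordinate was carried over. The sequences below are those of 4 mitosis genes and of Cdc6, 5′ to 3′ on the strand of the gene, with matches in capitals to CCAAT (the NF-Y element), to TTTGAA or TTCGAA (the cell-cycle genes homology region, CHR) and, in Cdc6, to the E2F letters TTTCGCGC, TTTGGCGC or TTTCCCGC, all on either strand.
Plk1: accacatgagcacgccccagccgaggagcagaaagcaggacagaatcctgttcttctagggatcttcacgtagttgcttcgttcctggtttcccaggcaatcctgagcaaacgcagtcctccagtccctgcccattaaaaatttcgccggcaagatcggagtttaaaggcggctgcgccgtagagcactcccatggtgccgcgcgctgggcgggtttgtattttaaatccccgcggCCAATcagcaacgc
Aurka: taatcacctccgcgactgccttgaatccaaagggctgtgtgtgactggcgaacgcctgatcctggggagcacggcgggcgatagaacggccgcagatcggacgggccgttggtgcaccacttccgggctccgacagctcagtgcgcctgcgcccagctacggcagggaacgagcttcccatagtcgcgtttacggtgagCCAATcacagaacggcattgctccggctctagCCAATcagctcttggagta
Cdc20: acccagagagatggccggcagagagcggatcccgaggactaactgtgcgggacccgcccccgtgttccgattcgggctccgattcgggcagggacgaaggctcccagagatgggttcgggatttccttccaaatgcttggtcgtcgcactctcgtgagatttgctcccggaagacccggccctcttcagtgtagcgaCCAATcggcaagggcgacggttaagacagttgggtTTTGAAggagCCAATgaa
Ube2c: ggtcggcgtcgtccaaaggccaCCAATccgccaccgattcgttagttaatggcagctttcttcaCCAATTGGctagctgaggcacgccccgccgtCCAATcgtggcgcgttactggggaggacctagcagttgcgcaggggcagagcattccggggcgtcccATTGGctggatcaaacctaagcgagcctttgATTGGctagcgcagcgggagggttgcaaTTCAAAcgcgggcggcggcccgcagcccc
Cdc6: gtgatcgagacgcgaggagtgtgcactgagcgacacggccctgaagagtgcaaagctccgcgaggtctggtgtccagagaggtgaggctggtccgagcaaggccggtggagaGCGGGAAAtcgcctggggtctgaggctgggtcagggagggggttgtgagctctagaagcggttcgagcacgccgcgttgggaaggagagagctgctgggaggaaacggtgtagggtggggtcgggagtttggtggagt
They lie at chr7:122159185-122159434 (+) for Plk1, chr2:172370571-172370820 (-) for Aurka, chr4:118437344-118437593 (-) for Cdc20, chr2:164769679-164769928 (+) for Ube2c and chr11:98907901-98908150 (+) for Cdc6. Plk1 held 1 CCAAT and Aurka 2, Cdc20 a CHR with 2 CCAAT, and Ube2c a CHR with 6 CCAAT matches, of which 1 pair overlaps on opposite strands. Cdc6 held 1 E2F match and is shown for that reason.

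Among the 49 mitosis genes with a promoter in the table (of 57), 37 (75.5%) held a CCAAT match, 20 (40.8%) a CHR match and 19 (38.8%) both. Over all 27025 promoters these shares were 34.5%, 17.4% and 6.21%, and over the 8264 promoters of genes tested 38%, 12.6% and 5.26%. CCAAT also stood in 11 of 22 licensing and helicase promoters (50%) and 16 of 30 of DNA synthesis and nucleotide genes (53.3%). In the LZ list, whose members mostly rose, 8 of 33 promoters (24.2%) held a CHR match, 6 (18.2%) a CCAAT match and none both. An E2F match stood in 9 of the 22 promoters of licensing and helicase genes (40.9%), beside 1.59% of all promoters and 3.44% of those of genes tested. Among promoters of DNA synthesis and nucleotide genes it stood in 2 of 30 (6.67%). Mcm10, Orc6 and Mcm3 held none in this window. In the CD40 and NF-kB list, 1 of 24 promoters (4.17%) held an NF-kB match, beside 1.17% of all promoters. These shares describe the letters in the window and were not tested.

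Among the regulators above this machinery more genes fell than rose in each list. Of 18 tested cyclins and cyclin-dependent kinases, 14 fell and 1 rose, and of 13 E2F, Myb and FoxM1 factors 10 fell and 2 rose. E2f8, a repressor of the E2F family made in S phase, went from 77.9, 83.3 and 96.4 CPM to 48.9, 56.1 and 63.7, without overlap (-0.57 ± 0.08), and Foxm1, an activator of mitosis genes, from 34.5, 36.0 and 39.0 to 21.1, 29.6 and 34.1 (-0.34 ± 0.10). E2f5, which works with the pocket proteins as a repressor, rose by 0.41. Among 14 tested CDK inhibitors and pocket proteins 6 fell and 1 rose, a share near the 48.9% of all genes called. Those that fell included Cdkn1b (p27), at -0.36 ± 0.11, and Cdkn2a, at -0.72 ± 0.19. Rbl2, the pocket protein p130, was the gene that rose (0.19 ± 0.07) and is named after its value was seen.

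The D-type cyclins, which carry mitogen signals to CDK4 and CDK6, did not share a direction. Ccnd3, the cyclin known to control inertial cycling in the DZ, was at 323, 393 and 427 CPM at 48 h and at 245, 307 and 343 at 72 h (-0.35 ± 0.05, adjusted p = 1.03e-06), and overlapped across but not within the pools. Its fall came with -0.55 in cells called G2M, -0.31 in S cells and 0.17 in G1 cells, of which the last did not pass the test, and the change in cycling cells differed from that in G1 cells of the same mice by -0.60. Ccnd2 depended on the pool. In the 25-mouse pool it was at 3.70 to 7.23 CPM at 48 h and 2.29 to 4.26 at 72 h (-0.72, adjusted p = 0.14), and in the 14-mouse pool at 3.63 to 7.25 and 17.8 to 37.7 (2.11, adjusted p = 0.0015). The joint value of 0.86 ± 0.35 (adjusted p = 0.0406) describes neither pool.

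Genes of growth and protein production fell as well. All 14 tested genes of serine and one-carbon metabolism, which supply carbon units for nucleotides, fell (median -0.53), and in untreated mice none of them passed the test. Shmt2, the mitochondrial enzyme that splits serine, was at 154, 162 and 188 CPM at 48 h and at 88.7, 97.3 and 112 at 72 h. Every 72 h mouse lay below every 48 h mouse (-0.72 ± 0.09). Phgdh, the first enzyme of serine synthesis, went from 164, 188 and 208 to 90.2, 110 and 129 CPM (-0.71 ± 0.09), also without overlap. Shmt1, the cytosolic enzyme, fell by 0.94 but overlapped in the 14-mouse pool, where its own change of -0.49 did not pass the test.

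All 18 tested genes of the cytosolic chaperonin and the heat shock proteins, which fold new proteins, fell as well (median -0.47). Hspd1, the mitochondrial chaperonin Hsp60, was at 303, 395 and 474 CPM and then at 164, 203 and 308, overlapping across but not within pools (-0.91 ± 0.13). Hsp90aa1 went from 1084, 1377 and 1877 CPM to 617, 746 and 1246 (-0.82 ± 0.10). Of 51 ribosome biogenesis genes 41 fell and none rose (median -0.30). The count was lower, 16 of 51 (median -0.19), when cells were thinned to 2871 UMIs each and shallower ones left out, where 1408 of 9107 genes fell over the whole table, and 18 of 51 in the 14-mouse pool alone. Npm1, nucleophosmin, the chaperone of the nucleolus, stood at 1573, 1988 and 2363 CPM at 48 h and 1017, 1144 and 1579 at 72 h (-0.71 ± 0.10).

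Cytosolic ribosomal protein genes fell by less each but in nearly every case, 79 of 80 tested (median -0.25). For these, reads shared with near-identical copies could move between genes. Rps2, of the small subunit, went from 3723, 4026 and 4376 CPM to 2051, 2509 and 2594 with no overlap (-0.71 ± 0.07). Mitochondrial ribosomal proteins (67 of 77 fell, none rose), nuclear subunits of oxidative phosphorylation (57 of 63, none) and the proteasome (33 of 41, with 2 that rose) had medians of -0.25, -0.25 and -0.28. In thinned cells 26 of 76, 41 of 63 and 29 of 41 fell, and in the 14-mouse pool alone 44 of 77, 53 of 63 and 30 of 41. The 2 proteasome genes that rose, Psmb8 (0.13) and Psmb10 (0.34), encode subunits of the immunoproteasome. Proteins encoded in the mitochondrial genome did not follow the nuclear subunits. Of their 13 genes 7 rose and 1 fell (median 0.10), with mt-Co3, a subunit of cytochrome oxidase, at 0.17 ± 0.03. Scaled per cell all 13 were lower, beside 92% of all genes. The 14-mouse pool had the higher mitochondrial share, and within the pools 5 and 7 of the 13 rose. For none of the 13 were the 48 h and 72 h mice apart in both pools. Cells were kept by a limit on mitochondrial UMIs, to which these genes contribute. Their levels therefore hold only for cells under that limit.

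In glycolysis 12 of 19 tested genes fell and 1 rose. Ldha, lactate dehydrogenase A, went from 601, 645 and 721 CPM to 362, 436 and 466 without overlap (-0.62 ± 0.09). The gene that rose, Aldoc, a brain-type aldolase, was at 2.11 to 3.72 CPM at 48 h and 9.84 to 14.2 at 72 h in the 25-mouse pool, but at 2.01 to 2.42 and 1.26 to 5.12 in the 14-mouse pool, where its change did not pass the test. Tfrc, the transferrin receptor, which brings in iron, fell by 0.50 and Slc7a5, a carrier of large neutral amino acids, by 0.57. Of 23 genes of cholesterol synthesis and uptake 1 rose and 1 fell, and Srebf2, the transcription factor of that pathway, was the one that rose (0.32 ± 0.05). The treated change was more positive than the untreated for 7 of the 23 and more negative for none, beside 14.4% and 17% of all genes. The median change was 0.05 in treated and -0.22 in untreated mice, where none passed the test. In S cells 6 rose and 1 fell, and in G2M cells 8 rose and none fell. Among genes outside these lists, Fabp5, a fatty-acid binding protein, went from 43.6, 66.8 and 92.5 CPM to 19.6, 23.01 and 42.5 (-1.23 ± 0.25), and Ppa1, an inorganic pyrophosphatase, went from 63.0, 75.2 and 86.8 to 27.0, 33.9 and 55.4 (-1.05 ± 0.15). Neither overlapped. Slpi, a secreted protease inhibitor, fell by 1.34 ± 0.48, but ranged from 156 to 764 CPM at 48 h and from 40.7 to 239 at 72 h and overlapped in both pools.

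Myc, which promotes growth and is induced by T cell help, was at 28.1, 34.7 and 45.8 CPM at 48 h and 23.2, 27.0 and 43.6 at 72 h. The groups overlapped, and the change of -0.24 ± 0.19 did not pass the test (adjusted p = 0.303, edgeR's quasi-likelihood test). Of the 10 tested genes of its network 3 rose and 2 fell, a share near the 48.9% of all genes called. Mxd4, which competes with Myc for their partner Max, was among the risers (0.59 ± 0.10).

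**Figure D3:**
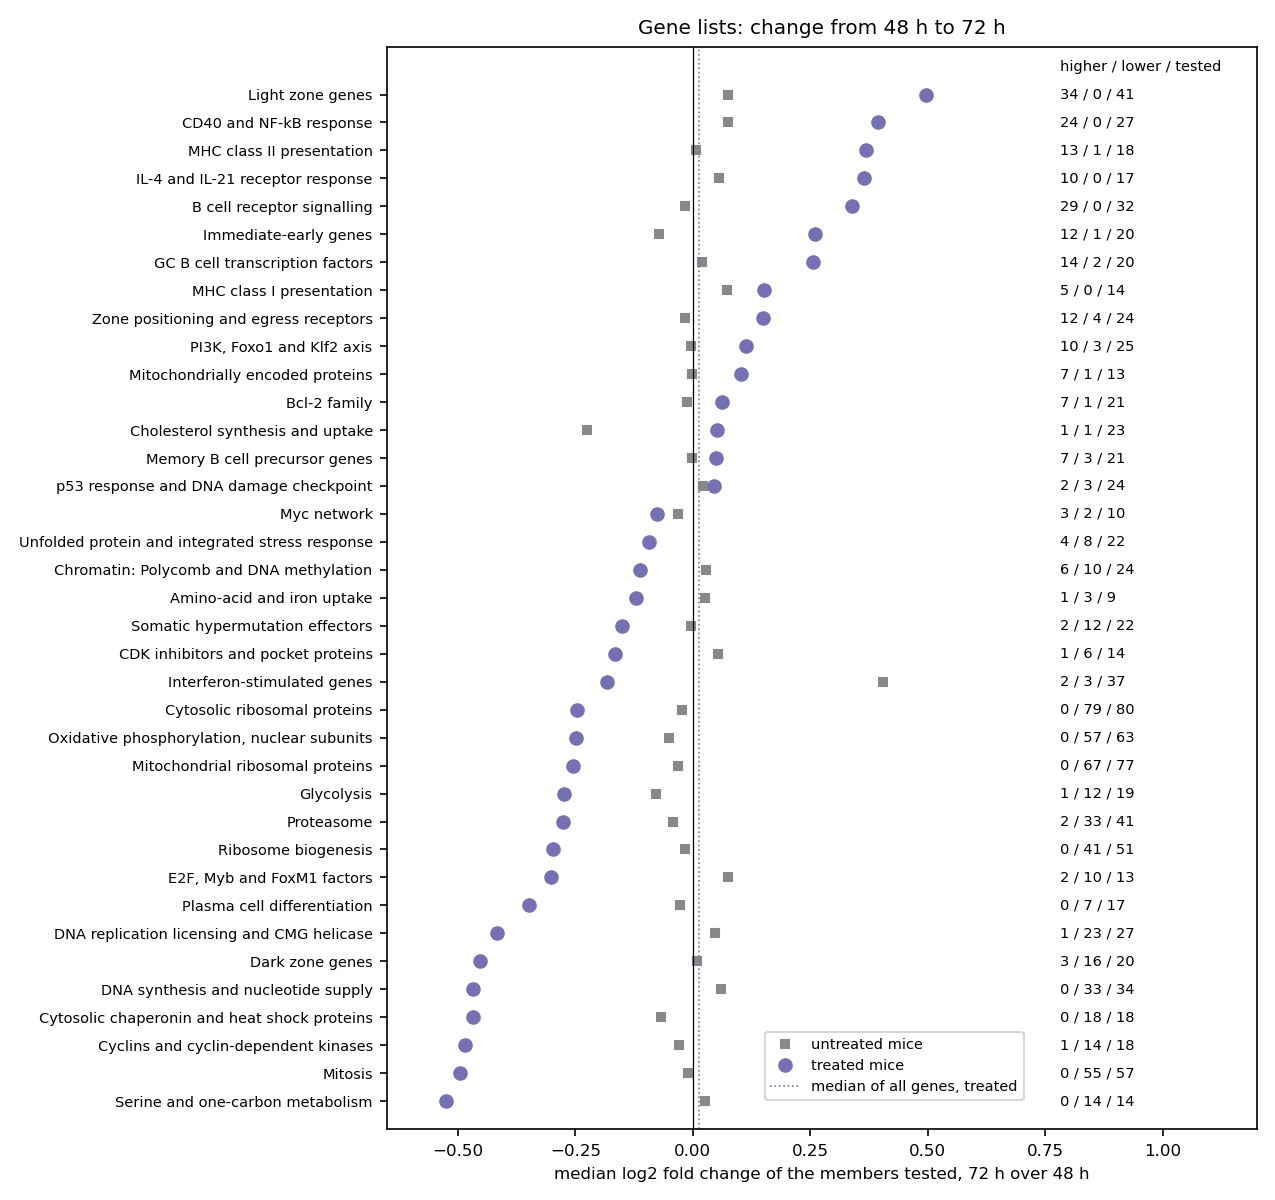
Median log2 fold change from 48 h to 72 h over the tested members of each gene list, in treated mice (circles) and untreated mice (squares), with the counts of members higher, lower and tested in treated mice at the right; the dotted line is the median of all genes. Medians in treated mice run from -0.53 for serine and one-carbon metabolism to 0.50 for LZ genes.

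The programme of the LZ made up more of the RNA at 72 h. Of 41 tested LZ genes 34 rose and none fell (median 0.50), none of the 41 passed the test in untreated mice, and for 26 the change was more positive after treatment. Scaled per cell, 6 of them were higher and 19 lower, beside 0.234% and 92% of all genes. Cd83, which stabilises MHC class II and CD86 at the surface and marks LZ cells, was at 107, 146 and 175 CPM at 48 h and at 196, 260 and 280 at 72 h. The groups did not overlap, and the rise was 0.86 ± 0.07 (adjusted p = 6.74e-12). Cd86, the costimulatory ligand of CD28 on T cells, rose from 74.8, 97.2 and 110 CPM to 148, 167 and 210, also without overlap (0.88 ± 0.09). Icosl, the ligand for ICOS on T follicular helper cells, went from 11.3, 17.5 and 21.9 to 18.9, 37.5 and 39.8, apart within each pool (0.98 ± 0.11).

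Il4i1, an amino-acid oxidase induced by IL-4, rose from 21.9, 34.0 and 54.9 CPM to 66.5, 83.7 and 93.4 (1.18 ± 0.11), with no overlap. Fcer2a (CD23, the low-affinity IgE receptor) went from 71.4, 119 and 163 to 158, 219 and 282 (1.07 ± 0.10), and Cr2 (CD21, the complement receptor through which B cells bind opsonised antigen) from 22.7, 38.9 and 60.1 to 62.1, 80.2 and 118 (1.11 ± 0.18). All 3 were also higher per cell, by 0.50, 0.36 and 0.40. The untreated means on day 10 were 291 ± 24.2 CPM (SD, n = 8) for Cd83, 154 ± 26.3 for Cd86, 110 ± 25.7 for Il4i1, 263 ± 57.8 for Fcer2a and 107 ± 26.9 for Cr2, so that the treated median at 72 h was below the untreated mean for all of these but Cd86. No test of treated against untreated mice at 72 h was run.

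**Figure D4:**
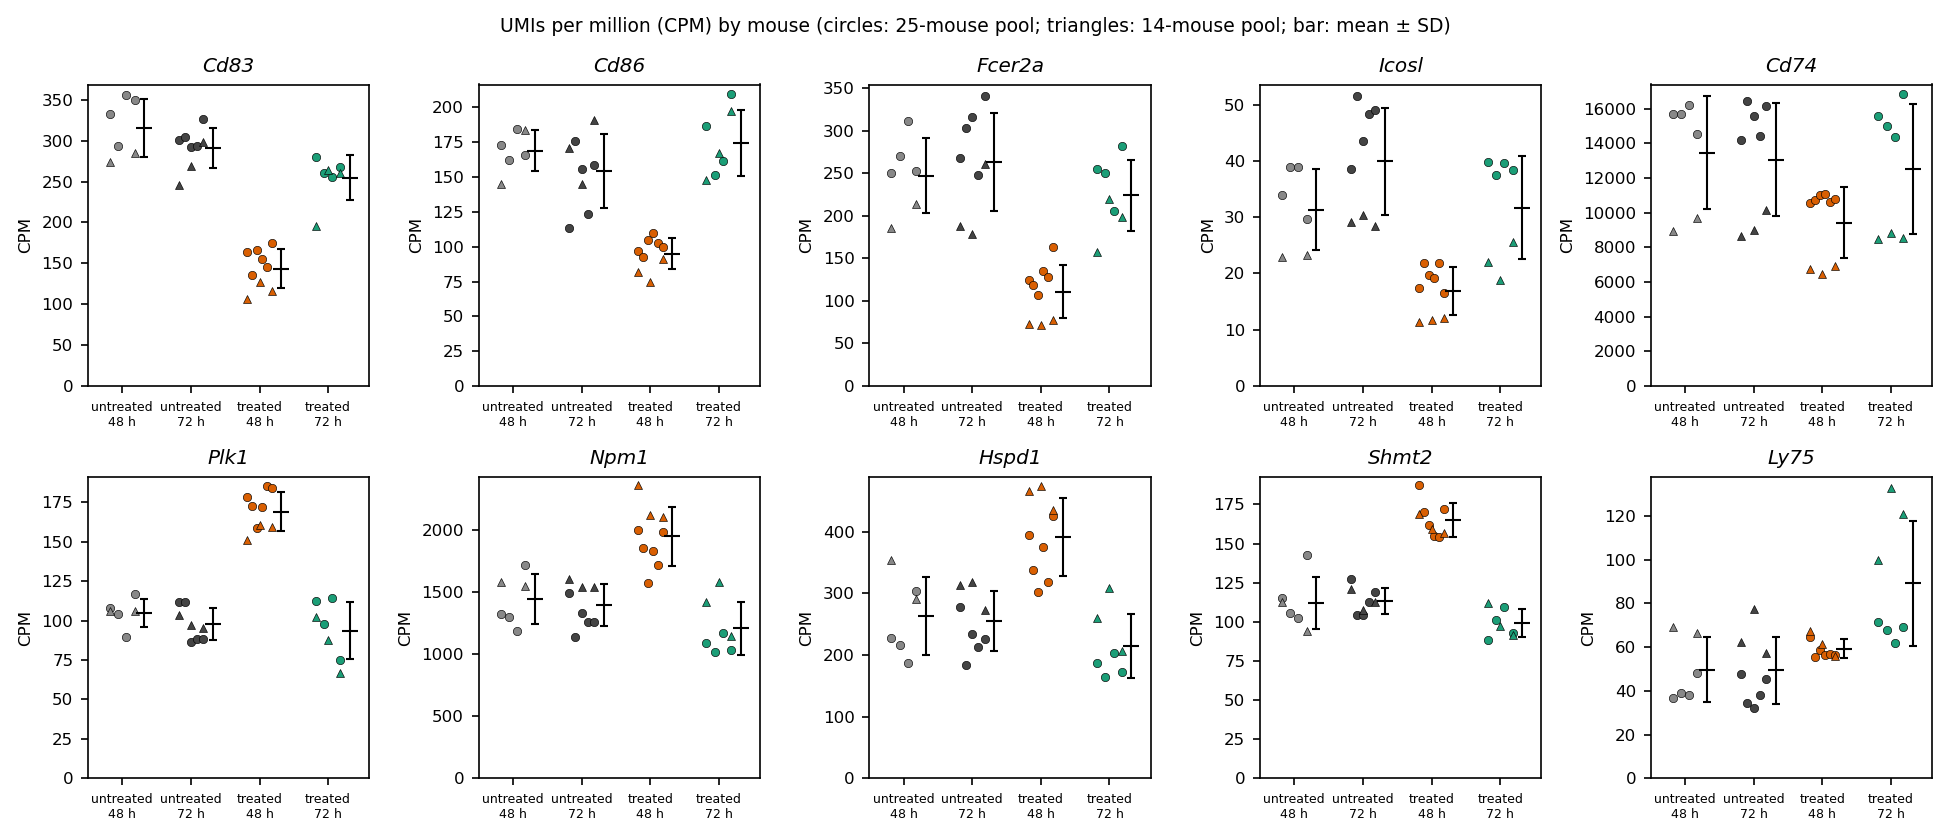
CPM of 10 genes, 1 point a mouse, in untreated and treated mice at 48 h and 72 h; bars give mean ± SD. Cd83 rises from at most 175 CPM in the treated 48 h mice to at least 196 CPM at 72 h, and Plk1 goes from at least 151 to at most 115 CPM.

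Genes of the pathways that work in the LZ rose beside these markers. In the CD40 and NF-kB list 24 of 27 tested genes rose and none fell (median 0.39), and in untreated mice none passed. Birc3 (cIAP2), which is both part of CD40 signalling and a target of NF-kB, went from 69.7, 79.0 and 86.0 CPM to 102, 118 and 174 without overlap (0.65 ± 0.08). Nfkbia, the inhibitor IkBa that NF-kB itself induces, went from 66.8, 111 and 124 to 110, 146 and 186, apart within each pool (0.64 ± 0.07). Nfkbiz rose by 0.79 and Cd40 by 0.54. Relative to cell number no gene of this list was higher and 18 were lower, beside 0.234% and 92% of all genes. 

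In the B cell receptor list 29 of 32 genes rose and none fell (median 0.34). Scaled per cell 31 were lower, beside 92% of all genes. Lyn, a kinase that starts signalling from the receptor, went from 269, 288 and 306 CPM to 367, 394 and 505, without overlap (0.49 ± 0.06), and Prkcb, the kinase C that links the receptor to NF-kB, rose by 0.53. Of 18 MHC class II genes 13 rose and 1 fell (median 0.37), and 17 were lower per cell, again beside 92% of all genes. Ciita, the master regulator of class II, was at 174, 195 and 210 CPM and then at 265, 279 and 311, without overlap (0.55 ± 0.05). Cd74, the invariant chain, was among the most abundant transcripts, at 6439, 10593 and 11051 CPM at 48 h and 8462, 14367 and 16872 at 72 h, apart within each pool (0.46 ± 0.04). Of 17 tested IL-4 and IL-21 receptor genes 10 rose, among them Il4ra at 0.72 ± 0.08 and Il21r at 0.48 ± 0.05. Of 14 MHC class I genes 5 rose and none fell, beside 24.1% of all genes that rose and 24.8% that fell, and 4 of the 14 fell in G1 cells.

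Immediate-early genes, which mark recent signalling, rose for 12 of 20 tested and fell for 1. Scaled per cell, 1 of them was higher and 16 were lower, beside 0.234% and 92% of all genes. In the 14-mouse pool alone 4 of 21 rose, and in G2M cells 2 of 17. Egr3 had 0 to 0.831 CPM at 48 h and 0.57 to 2.10 at 72 h (1.75 ± 0.41, at a few UMIs a mouse), and Nr4a1, a reporter of antigen receptor signalling, rose by 0.83, while Fosb fell by 0.95. The TNF family cytokine Lta (lymphotoxin alpha) went from 31.96, 52.4 and 60.1 CPM to 54.1, 95.2 and 110 (0.90 ± 0.10) and Tnf from 10.05, 16.3 and 19.1 to 15.9, 30.4 and 35.6 (0.90 ± 0.17), both apart within each pool. In untreated mice these changed by -0.17 and -0.31, and the difference passed the test for both.

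Among transcription factors of GC B cells 14 of 20 rose and 2 fell (median 0.26), with 18 lower per cell, beside 92% of all genes. Bcl6, the repressor that defines the GC B cell, went from 216, 235 and 247 CPM to 272, 290 and 334 without overlap (0.33 ± 0.04). Bach2, which holds B cells back from plasma cell fate, went from 1211, 1424 and 2136 to 1762, 2110 and 3819, apart within each pool (0.56 ± 0.07), and Ebf1 rose by 0.51. Foxo1, which maintains the DZ programme, rose by 0.33 and Tcf3, also linked to the DZ, fell by 0.19. Of 20 DZ genes 16 fell and 3 rose, and that list shares members with the cell-cycle lists, Plk1, Aurka, Ccnb1 and Mki67 among them. Cxcr4, the receptor that holds cells in the DZ, was at 79.3, 117 and 129 CPM and then at 61.2, 98.8 and 121, overlapping (-0.14 ± 0.07, adjusted p = 0.0835, edgeR's quasi-likelihood test), whereas Cxcr5, the receptor that draws cells to the LZ, rose from 51.4, 64.9 and 81.1 to 73.4, 106 and 121 (0.60 ± 0.07).

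Effectors of somatic hypermutation and its repair fell more often than they rose, 12 of 22 against 2 (median -0.15), beside 24.8% of all genes that fell and 24.1% that rose. Within a phase 5 of 21 fell in S cells, 4 of 22 in G2M cells and 1 of 19 in G1 cells, beside 12.4%, 13.2% and 3.93% of all genes, and 2, 2 and 1 rose. In cells thinned to 2871 UMIs 7 of the 22 fell, and in the 14-mouse pool alone 6 of 22 (median -0.08). Ung, the glycosylase that removes uracil from DNA, was at 24.5, 28.0 and 32.8 CPM at 48 h and 15.3, 18.7 and 24.5 at 72 h (-0.61 ± 0.12). Apex1, which cuts the resulting abasic sites, fell by 0.54, Exo1, the exonuclease of mismatch repair, by 0.59, and Fam72a, which opposes Ung, by 0.49. Polh, the error-prone polymerase eta, went from 138, 147 and 171 CPM to 89.8, 115 and 130 with no overlap (-0.41 ± 0.06). The 2 that rose were Rev1 (0.31 ± 0.05), a translesion polymerase and scaffold, and Rev3l (0.14 ± 0.04), the catalytic subunit of polymerase zeta. None of the 22 passed the test in untreated mice, beside 0.156% of all genes. All 22 were lower per cell, beside 92% of all genes. Ly75, the target of the treatment, was at 55.4, 57.1 and 67.6 CPM and then at 62.1, 71.4 and 133 (0.48 ± 0.10), by 0.24 in the 25-mouse and 0.92 in the 14-mouse pool.

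Other lists moved in both directions, beside 48.9% of all genes called. Of 24 tested p53 and checkpoint genes 2 rose and 3 fell, and of 22 unfolded protein and stress genes 4 rose and 8 fell. In the 14-mouse pool alone 2 of 21 unfolded protein and stress genes rose and 1 fell. In cells of the B1-8hi pairing 1 of 21 rose and 5 fell. Of 24 Polycomb and DNA methylation genes 6 rose and 10 fell, with the H3K27 methyltransferase genes apart: Ezh2 fell by 0.41 ± 0.06 and Ezh1 rose by 0.50 ± 0.10. In the Bcl-2 family 7 of 21 rose and 1 fell. Bmf, a BH3-only protein that promotes cell death, rose from 2.39, 4.21 and 5.42 CPM to 4.52, 7.95 and 12.2, apart within each pool (1.14 ± 0.17). Of 37 interferon-stimulated genes 2 rose and 3 fell in treated mice, with a median of -0.18 against 0.41 in untreated mice, where none passed the test. The treated change was more negative than the untreated for 9 of the 37 and more positive for none, beside 17% and 14.4% of all genes. Bst2 (tetherin) had the most negative difference from the untreated change among the genes named by the rule, at -1.15.

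Since the mix of phases changed, the same test was run within cells of 1 phase. Fewer genes passed in G1 cells, 110 higher (1.23%) and 351 lower (3.93%) of 8940 (5.16% in all), than in S cells, 1178 (12.9%) and 1137 (12.4%) of 9144, or G2M cells, 1408 (15.2%) and 1225 (13.2%) of 9250. The fewest cells in a treated mouse were 100 in G1, 76 in S and 84 in G2M. The phase calls rest on genes that the mitosis and replication lists also hold. This ties the values of those lists within a phase to the calls. In G2M cells 13 of 57 mitosis genes rose and 3 fell, with a median of 0.03. They fell for 24 of 57 in S cells and 8 of 45 in G1 cells, and none rose in either (medians -0.19 and -0.24). In S cells 1 of 27 licensing and helicase genes fell and none rose (median 0.02). Of 34 DNA synthesis and nucleotide genes 8 fell and 2 rose in S cells (median -0.015). In G2M cells 16 of 27 and 24 of 34 members of these 2 replication lists fell, and in G1 cells 1 of 24 and 4 of 34.

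LZ genes and several growth lists had more calls in S and G2M cells than in G1 cells. LZ genes rose for 28 of 37 in S cells and 26 of 37 in G2M cells, and for 1 of 40 in G1 cells, where 4 fell. Their medians were 0.52, 0.38 and 0.02. For Cd83 the change was 0.94 in S cells, 0.62 in G2M cells and -0.05 in G1 cells (adjusted p = 0.868), and for Il4i1 1.53, 0.99 and -0.22. MHC class II genes rose for 13 of 18 in S and 13 in G2M cells and for none in G1 cells, where 3 fell, and CD40 and NF-kB genes for 18, 20 and 2 of 27. Ribosome biogenesis genes fell for 32 of 51 in S and 35 in G2M cells, whereas in G1 cells none fell and 2 rose (medians -0.28, -0.35 and 0.06). The chaperone list had 16 falls of 18 in S and in G2M cells and none in G1 cells, and serine and one-carbon genes had 12, 14 and none of 14. Cytosolic ribosomal protein genes fell in every phase, 75 of 80 in S cells, 79 in G2M cells and 46 in G1 cells (medians -0.21, -0.29 and -0.15).

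The difference between phases was then tested itself, with the cycling (S and G2M) and G1 cells of each treated mouse as a pair. The change was more positive in cycling cells for 444 genes (4.8%) and more negative for 303 (3.28%) of 9245. It was more positive for 23 of 39 LZ genes, 12 of 18 MHC class II genes and 10 of 27 CD40 and NF-kB genes, and more negative for none of them. It was more negative for 26 of 51 ribosome biogenesis genes and 15 of 18 chaperone genes, but for 4 of 80 cytosolic ribosomal protein genes. For Cd83 the difference was 0.83 (adjusted p = 1.13e-05), for Fcer2a 0.84, for Hspd1 -0.78 and for Npm1 -0.50. Some genes changed in G1 cells as well, with Bcl6 at 0.34, Lta at 0.55 and Rps2 at -0.25 there.

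**Figure D5:**
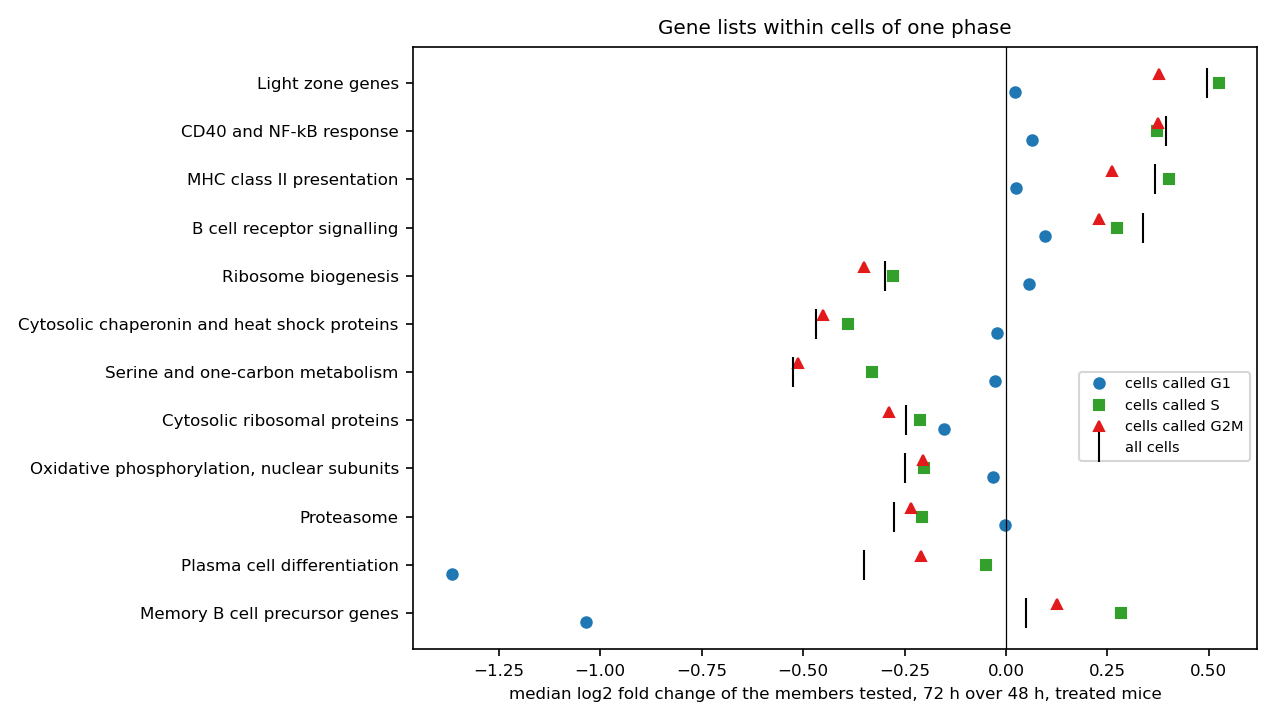
Median log2 fold change from 48 h to 72 h in treated mice over the tested members of 12 gene lists, within cells called G1, S and G2M and over all cells. LZ genes lie at 0.02 in G1 cells and at 0.52 in S cells, and ribosome biogenesis genes at 0.06 and -0.28.

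Besides the ribosomal protein genes, members of 3 further lists are given for G1 cells, where 3.93% of all genes fell. Of 20 unfolded protein and stress genes 8 fell and none rose (median -0.39). Plasma cell genes fell for 12 of 15 tested (median -1.37) and memory precursor genes for 9 of 19, with 1 that rose (median -1.04). Over all cells 24.1% of all genes rose and 24.8% fell. Of 17 plasma cell genes 7 fell and none rose over all cells, while in the 14-mouse pool alone none of 18 passed the test. Of 21 memory precursor genes 7 rose and 3 fell over all cells (median 0.05). Prdm1, which directs plasma cell fate, changed by -4.01 in G1 cells, Jchain, the joining chain of secreted antibody, by -1.46, and Xbp1, of the secretory programme, by -1.22. Klf2 and S1pr1, genes of recirculating lymphocytes, changed by -1.85 and -1.38. These changes of single genes are given without their spread between mice. In the same G1 cells plasma cell markers summed to 1000, 2482 and 9207 CPM (lowest, median and highest mouse) at 48 h. At 72 h they summed to 817, 1406 and 1751, so that the groups overlapped. Naive or memory B cell markers summed to 361 to 672 at 48 h and 331 to 529 at 72 h. T cell markers summed to 2.78 to 61.3 and 0 to 19.1, and macrophage or dendritic cell markers to 1.15 to 156 and 2.70 to 49.9. Among G1 cells of the B1-8hi pairing alone, 252 of all 8072 genes tested fell and 52 rose. Plasma cell genes fell there for 13 of 16 tested and memory precursor genes for 7 of 17. Unfolded protein and stress genes fell there for 3 of 19 (median -0.41). Whether other cell types had a part in these falls was not tested. With only cells of the B1-8hi pairing, LZ genes rose for 33 of 40 over all phases, beside 2045 of all 9893 genes. In G1 cells of that pairing 1 of 38 LZ genes rose and 3 fell, beside 52 and 252 of all 8072 genes.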

How the data were processed

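Single GC B cells were profiled with 10x 5′ libraries. The authors deposited UMI counts per gene and cell, with hashtag counts and receptor contigs; per the labels these were made with Cell Ranger 6.0.1 and build mm39, and Seurat 5.1.0 was used, while the study names several Cell Ranger releases, this one among them. Cells were given to a mouse by HTODemux (Seurat 5.3.0, positive quantile 0.99) from both hashtags of its combination. Of 16424 and 18233 barcodes, 13976 and 13187 were assigned, 1936 and 2705 with hashtags of several mice were left out, and doublets within a mouse were not searched for. The filter kept cells of 200 genes or more whose mitochondrial UMIs were under 10%. Counts were summed per mouse and fitted with edgeR 4.0.16 (R 4.3.3; filterByExpr, TMM, quasi-likelihood test, all 39 mice, pool as covariate, Benjamini-Hochberg threshold 0.05). P-values measure the spread between mice. Phases came from CellCycleScoring with 43 S and 54 G2M genes. A mouse with under 10 cells of a phase was left out of that phase's fit. The cycling against G1 fit and the per cell scale were chosen after seeing the data. Alternatives were DESeq2 1.42.0, other filters, scalings and cells, each pool alone and each mouse left out. The method was tested on simulated counts with few genes changed, as many up as down, and no difference between pools. That setting is unlike these data, so it does not bear on the scaling when many genes change. Lists were not tested as sets. The text names the 12 largest rises and falls with an average log2 CPM above 4 and one direction in both pools, the 6 largest differences from untreated mice in each direction, up to 4 called members per list, and members whose role is explained, though not every such gene is printed. The members and lists were chosen with earlier results of these data known.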

Additional observations from a re-analysis of the deposited data

Results flagged for a closer look

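For 10 of the named genes, 1 treated mouse stood far from the others of its group, by Dixon's test; 274 groups of values were examined, and chance flags about 1 in 20 groups. At 48 h the highest mouse had 128.5 CPM of Il21r (next 117.6), 10.3 of Gbp2 (next 4.48) and 26.1 of Zeb2 (next 19.04), and the lowest had 10.05 of Tnf (next 15.4). At 72 h the highest mouse had 118.3 CPM of Cr2 (next 85.4), 36.1 of Rdx (next 19.6), 68.4 of Mrto4 (next 55.5), 112.4 of Hsph1 (next 76.7), 15.8 of Bcl2l1 (next 10.7) and 15.5 of Gbp2 (next 6.88), and the lowest had 196.3 of Cd83 (next 255.0).

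The change from 48 h to 72 h differed between treated and untreated mice, by the interaction in edgeR's quasi-likelihood fit, for 1481 genes in the positive and 1742 in the negative direction. Among the genes named by the rule, the difference on the log2 scale was 1.45 for Pxdc1, 1.43 for Nxpe2, 1.38 for Rapgef4, a guanine nucleotide exchange factor of Rap, 1.30 for Gsn (gelsolin), 1.21 for Tnf and 1.12 for Ncf1, a subunit of the phagocyte oxidase. It was -1.15 for Bst2, -1.07 for Fabp5, -1.03 for Akap12, -1.02 for Ifi27l2a, -1.01 for Zeb2 and -0.998 for Ppa1. The treated change of Akap12, Ifi27l2a and Zeb2 did not itself pass the test.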

How the results depend on the processing

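Over 3423 values of 127 named genes under the alternatives, 3286 kept their side of the threshold, and their direction where the main fit called the gene. For genes not called in the main fit, direction was not compared. The call was lost for 115 values (41 genes) and gained for 21 (4 genes), and 1 reversed: Ccnd2, at -0.72 in the 25-mouse pool alone. The 5025 genes changed in treated mice became 2750 in cells thinned to a fixed number of UMIs, 3107 without the pool term, 2661 in the 14-mouse pool alone and 9471 per cell, where 24 were higher and 9447 lower against 2476 and 2549. The 3223 genes whose change differed from the untreated one became 1636 when thinned, 1152 without the pool term, 1924 in cells of the B1-8hi pairing, 8648 per cell and 768 in the 14-mouse pool. The 16 genes of untreated mice became 37 with DESeq2, 32 without the filter on low counts, 3 when thinned, 7 in the 25-mouse pool, and, by edgeR, 0 without the pool term (355 at an unadjusted p under 0.05), 0 per cell (394) and 0 in the 14-mouse pool (393). Within G1 cells the 461 genes became 128 without the pool term, 304 in cells of the B1-8hi pairing and 202 with phases and counts from thinned cells; within S cells 2315 became 1128 without the pool term and 1035 thinned, and within G2M cells 2633 became 1298 and 858. In the 14-mouse pool alone, where exact permutation p cannot go below 0.1, the differences were 22.9 points for G1, -10.8 for S, -12.1 for G2M, -5414 UMIs and -1028 genes per cell. With each mouse left out in turn, 4563 to 4998 genes changed in treated mice and 2869 to 3278 differed from the untreated change, and the differences ranged from 26.4 to 28.7 points for G1, -12.8 to -11.9 for S, -16.1 to -14.5 for G2M, -5778 to -5335 UMIs and -985 to -914 genes. Of 32 lists with at least 5 calls in their leading direction, the count of those calls moved by over 1.5 times in 9 when thinned, 3 in cells of the B1-8hi pairing, none in the 25-mouse pool and 12 in the 14-mouse pool. When thinned these were ribosome biogenesis (41 to 16 lower), mitochondrial ribosomal proteins (67 to 26), glycolysis (12 to 7), the unfolded protein list (8 to 5), hypermutation effectors (12 to 7), immediate-early genes (12 to 6 higher), the PI3K and Foxo1 list (10 to 6), the Bcl-2 family (7 to 3) and memory precursor genes (7 to 4). In the 14-mouse pool the falls went from 33 to 21 for DNA synthesis, 10 to 4 for E2F, Myb and FoxM1 factors and 7 to 0 for plasma cell genes. They went from 12 to 6 for hypermutation effectors and 8 to 1 for the unfolded protein list, and the rises from 12 to 4 for immediate-early genes. In cells of the B1-8hi pairing the falls went from 8 to 5 for the unfolded protein list and 7 to 4 for plasma cell genes. For CDK inhibitors and pocket proteins they went from 6 to 3. The thinned and per cell alternatives for untreated mice, the per cell scale, and the thinned and B1-8hi alternatives within phases were chosen after seeing the data. Cells of a phase numbered as few as 100 (G1), 76 (S) and 84 (G2M) in a treated mouse. The cause of these shifts was not tested. No paired analysis of 48 h against 72 h was possible because each mouse was sampled at 1 time and the mouse numbers pair no animals across groups.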
